A study of Mus musculus with 1 sample.

Results

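The genes described here write, erase and read DNA methylation. They are 9 of the 54532 genes in the table, taken by name for their function, with earlier results of these data known. They are the methyltransferases *Dnmt1*, *Dnmt3a* and *Dnmt3b*, the dioxygenases *Tet1*, *Tet2* and *Tet3*, the glycosylase *Tdg*, and the methylation readers *Uhrf1* and *Mbd2*. They were measured by RNA-seq in 1 library of sorted c-kit+ BM cells, in which c-kit is the receptor tyrosine kinase of hematopoietic progenitors. The cells came from Ctrl mice of the C57BL/6 strain whose genotype is wild type, and the labels add a gate of Lin-cKit+Sca1- cells. No treatment is named for them, and the age and number of the mice behind the library are not given in the sources used here. The study set these cells beside those of *Gadd45g*-deficient mice with MPN, whose library was not analysed here. No comparison between genotypes was therefore made, there are no replicates, and no p-value is given.

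Methylation of cytosine in CpG dinucleotides is copied to the new DNA strand at each replication by DNMT1, which UHRF1 brings to hemimethylated sites. DNMT3A and DNMT3B place new methyl groups. TET enzymes oxidize the methyl group, TDG cuts out the oxidized bases, and base excision repair restores a plain cytosine, while MBD2 binds methylated CpG and carries the NuRD deacetylase complex to it. *DNMT3A* and *TET2* are recurrently mutated in human myeloid neoplasms, and GADD45 proteins have been linked to active demethylation. The study also asked whether methylation takes part in the silencing of *GADD45g* in MPN cells, and the paper proposes that its part is marginal.

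Of the 9 genes, 8 reached 1 FPKM, the level at which a gene is called detected here, against 22.2% of all listed genes and 46.8% of protein-coding genes. FPKM are fragments divided by the length of the gene, here the bases of all its exons, and by the size of the library. They set genes of different length side by side within the library, but ratios between genes depend on the length used. The levels fell into an upper group of 3 genes, *Mbd2*, *Uhrf1* and *Dnmt1*, between 50.3 and 70.2 FPKM, and a lower group of 6 genes that did not pass 9.48 FPKM. The 3 upper genes were thus the ones at 10 FPKM or more, a level reached by 9.37% of all listed genes and 21.2% of protein-coding genes. The highest gene was 267 times the lowest. The median of the 9 was 7.93 FPKM, beside 1.77 FPKM over the 21322 genes above 0, 4.22 FPKM over the protein-coding genes above 0 and 7.77 FPKM over all detected genes, so that against detected genes the median of the 9 was not set apart.

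**Figure D1:**
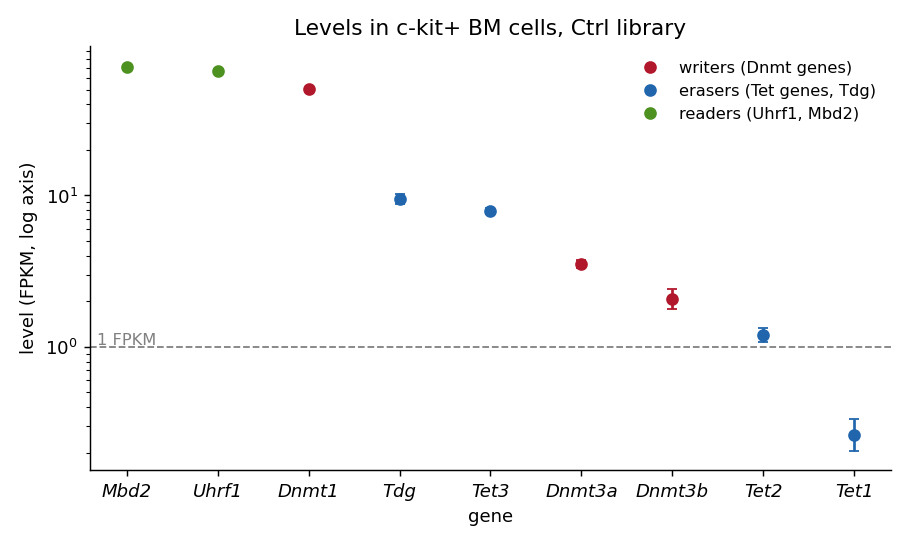
Level of each gene in the Ctrl library, in FPKM on a log axis, with 95% Wilson intervals that cover counting error only; the dashed line marks 1 FPKM. *Mbd2*, *Uhrf1* and *Dnmt1* lie at 50.3 FPKM or above, the other 6 genes at 9.48 FPKM or below, and *Tet1* alone lies under the line.

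The FPKM values could be turned back into whole fragments for all 9 genes, which gives the counting error of each level. The scaling total of the library was 15783890 fragments, and the 9 genes held 18226 fragments, or 0.115% of it. Counts ran from 64 fragments on *Tet1* to 5851 on *Dnmt1*. The 95% Wilson intervals given below cover counting error only, and not the spread between mice, which 1 library does not show.

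The sort was checked against marker genes. *Kit* had 7.17 FPKM, and all 5 genes of the progenitor list (*Kit*, *Cd34*, *Myb*, *Gata2* and *Runx1*) reached 1 FPKM, led by *Myb* at 16.5 FPKM. None of 5 HSC genes did, with *Hlf* highest at 0.844 FPKM. The GMP and MEP lists were detected in full, led by *Elane* at 781 FPKM and *Car1* at 205 FPKM. So were the lists of mature neutrophils, erythroid cells, B cells, T cells and macrophages, 31 genes in all with none at 0, whose summed levels were 54596, 42670, 6690, 25.6 and 166 FPKM. They were led by *S100a9* (26677 FPKM), *Hba-a1* (25466 FPKM), *Igkc* (4323 FPKM), *Cd3d* (8.55 FPKM) and *C1qb* (50.3 FPKM), and together they held 24.3% of the summed FPKM. The part of these cells in the levels of the 9 genes was not tested, and in a bulk library fewer cells of a type cannot be told apart from less RNA per cell.

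The maintenance genes stood high. *Uhrf1* (ENSMUSG00000001228), whose product reads hemimethylated CpG behind the replication fork, spans bases 56303321 to 56323486 of chromosome 17 in GRCm38, forward strand. It had 66.2 FPKM from 4449 fragments (interval, 64.3 to 68.2), above 96.0% of the genes above 0 FPKM. *Dnmt1* (ENSMUSG00000004099), the maintenance methyltransferase, spans bases 20907209 to 20959888 of chromosome 9, reverse strand. It had 50.3 FPKM from 5851 fragments (interval, 49.0 to 51.6), the most fragments of the 9 genes, and stood above 94.6% of the genes above 0. *Uhrf1* was thus 1.32 times *Dnmt1* per length (exact binomial interval, 1.27 to 1.37), but had 0.760 times its fragments when length was not divided out.

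The de novo genes stood far below. *Dnmt3a* (ENSMUSG00000020661), which spans bases 3806007 to 3914443 of chromosome 12 (forward), had 3.52 FPKM from 924 fragments (interval, 3.30 to 3.75). *Dnmt3b* (ENSMUSG00000027478), at bases 153649450 to 153687730 of chromosome 2 (forward), had 2.08 FPKM from 168 fragments (interval, 1.79 to 2.42). Both were detected, near the middle of the genes above 0, at the 58.9 and 52.0 percentile. Among detected genes alone they stood low, at the 27.7 and 15.5 percentile.

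*Dnmt1* was 14.3 times *Dnmt3a* (interval, 13.3 to 15.3) and 8.97 times the sum of *Dnmt3a* and *Dnmt3b* (range from the bounds of the single intervals, 7.93 to 10.1). Of the summed FPKM of the 3 methyltransferase genes, *Dnmt1* held 90.0%, *Dnmt3a* 6.30% and *Dnmt3b* 3.73%. The size of this gap depends on the length used. The 18 annotated transcripts of *Dnmt3a* cover 16642 exon bases, whereas its longest protein-coding transcript has 9685 bases. Its longest coding sequence has 2724 bases. *Dnmt1* was 10.4 times *Dnmt3a* per base of the longest protein-coding transcripts and 3.55 times per coding base. *Dnmt3a* was 1.69 times *Dnmt3b* as deposited (interval, 1.43 to 2.001), and 2.45 and 5.21 times under these lengths. *Dnmt1* stayed the highest and *Dnmt3b* the lowest of the 3 under each of these lengths and in fragments.

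Among the close relatives of these enzymes, *Trdmt1*, a tRNA methyltransferase of the same family, had 2.46 FPKM, and *Dnmt3l*, the cofactor without catalytic activity that serves in germ cells, had 0.191 FPKM from 9 fragments. *Dnmt3c*, the rodent copy of *Dnmt3b* that acts in male germ cells, had 0.656 FPKM from 23 fragments. How the authors' counting dealt with fragments that match both copies is not given in the sources used here, so the split between *Dnmt3b* and *Dnmt3c* is uncertain. The pseudogene *Tdg-ps* had 5 fragments beside 804 on *Tdg*, and the antisense genes *Dnmt3aos* and *Dnmt3bos* were listed at 0.

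Of the TET genes, *Tet3* was the highest, *Tet2* was just above 1 FPKM and *Tet1* below it. *Tet3* (ENSMUSG00000034832), which spans bases 83362373 to 83459084 of chromosome 6 (reverse), had 7.93 FPKM from 2089 fragments (interval, 7.59 to 8.27). *Tet2* (ENSMUSG00000040943), at bases 133463679 to 133545139 of chromosome 3 (reverse), had 1.19 FPKM from 318 fragments (interval, 1.07 to 1.33), just inside detection. *Tet1* (ENSMUSG00000047146), at bases 62804570 to 62908996 of chromosome 10 (reverse), had 0.262 FPKM from 64 fragments (interval, 0.205 to 0.335).

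*Tet1* was the 1 gene of the 9 that was not detected at 1 FPKM, although its 64 fragments are well above the 3 that a count of 0 allows. *Tet3* was 6.64 times *Tet2* (interval, 5.90 to 7.49), and *Tet2* was 4.55 times *Tet1* (interval, 3.47 to 6.05). Per base of the longest protein-coding transcripts, *Tet2* was 7.78 times *Tet1*. *Tet3* held 84.5% of the summed FPKM of the family, *Tet2* 12.7% and *Tet1* 2.80%. The order of the 3 genes was the same in fragments and under every length tried, and their exon bases are close, from 15457 to 16870.

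*Tdg* (ENSMUSG00000034674), whose product excises the oxidized bases that TET enzymes leave, spans bases 82629828 to 82650799 of chromosome 10, forward strand. It had 9.48 FPKM from 804 fragments (interval, 8.85 to 10.2), 1.01 times the summed level of the 3 TET genes, with a range of 0.890 to 1.15 when the bounds of the single intervals are put together. No difference between *Tdg* and that sum could be seen at this depth, and in fragments, without division by length, *Tdg* was 0.325 times the sum. Its exons share 367 bases, 6.83% of their length, with *Glt8d2* on the opposite strand, which had 7 fragments. The 3 methyltransferase genes added up to 55.9 FPKM and the 3 TET genes to 9.38 FPKM, a ratio of 5.95 (range from the bounds, 5.44 to 6.51) that was 2.81 in fragments.

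*Mbd2* (ENSMUSG00000024513), the reader that recruits NuRD, had the highest level of the 9 genes. It spans bases 70568189 to 70626131 of chromosome 18, forward strand, and had 70.2 FPKM from 3559 fragments (interval, 67.9 to 72.5), with 783 genes at or above it. Its interval overlaps that of *Uhrf1*. Their ratio of 1.06 (interval, 1.01 to 1.11) leaves 1 only narrowly, on counting error alone, and *Mbd2* had the fewer fragments, so their order over mice is not known.

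Set beside its close relative, *Mbd2* was 1.57 times *Mbd3* (interval, 1.48 to 1.68), the NuRD subunit that takes its place in a separate form of the complex and binds methylated DNA poorly in mammals, at 44.6 FPKM. In fragments this ratio was 2.55. *Uhrf1* was 6.40 times its paralog *Uhrf2* (interval, 6.03 to 6.81), which had 10.3 FPKM and does not replace it in maintenance. Per base of the longest protein-coding transcripts this was 3.13 times.

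**Figure D2:**
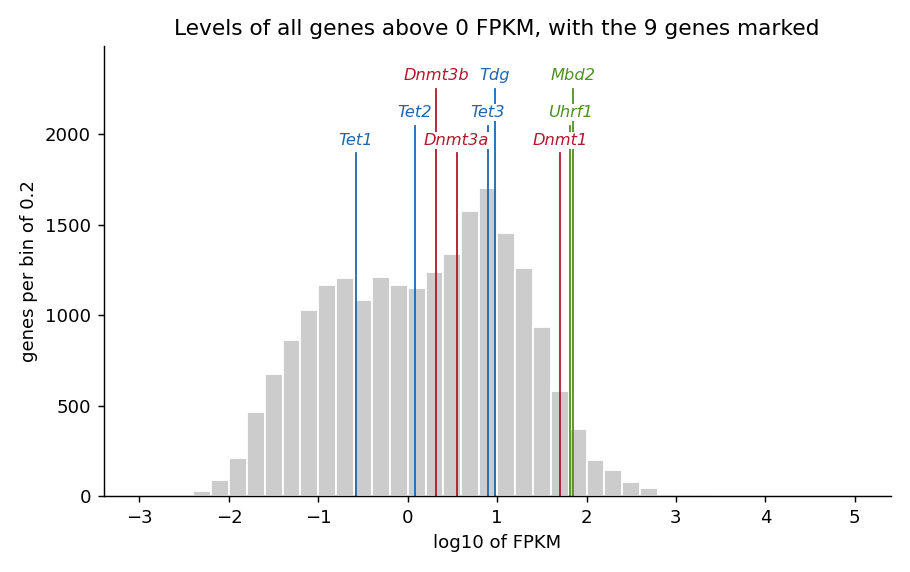
Number of genes per bin of 0.2 in log10 of FPKM, over the genes above 0 FPKM, with a line at the level of each of the 9 genes. *Mbd2*, *Uhrf1* and *Dnmt1* lie on the right flank, above 94.6% of these genes or more, *Tdg* and *Tet3* near the peak, and *Tet1* on the left, above 27.4% of them.

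From the top down, the 9 genes ran *Mbd2*, *Uhrf1*, *Dnmt1*, *Tdg*, *Tet3*, *Dnmt3a*, *Dnmt3b*, *Tet2* and *Tet1*. The largest step lay between *Dnmt1* and *Tdg*, a ratio of 5.30 (interval, 4.92 to 5.71) that was 1.89 per coding base, followed by that between *Tet2* and *Tet1*, at 4.55. This ranking turned with the length used. *Tet2* to *Tet1* was the largest step per base of the longest protein-coding transcripts (7.78, against 4.34 for *Dnmt1* to *Tdg*) and per coding base (5.28). The smallest, after that of *Mbd2* and *Uhrf1*, was between *Tdg* and *Tet3*, at 1.20 (interval, 1.10 to 1.30). Under the other lengths the smallest step was instead *Dnmt3b* to *Tet2*, at 1.12 per base of those transcripts, and *Tet3* to *Dnmt3a*, at 1.14 per coding base. In all 8 neighbouring pairs the counting interval of the ratio as deposited left out 1, but with 1 library they cannot be set against variation among mice.

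The length that divides the fragments is the choice that bears most on these levels. Exon bases of a gene, each counted once however many transcripts share it, were 1.08 (*Tet1*) to 1.84 (*Tet2*) times those of its longest protein-coding transcript. Division by the length of that transcript kept all 8 neighbouring pairs in order, and so did division by coding bases, which raises genes with long untranslated ends because their fragments still count. Without division by length 4 of the 8 pairs were kept, and *Dnmt1* came first and *Tet1* last. The 4 genes with the most exon bases, *Tet1*, *Tet2*, *Tet3* and *Dnmt3a*, at 15457 to 16870, were all in the lower group.

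**Figure D3:**
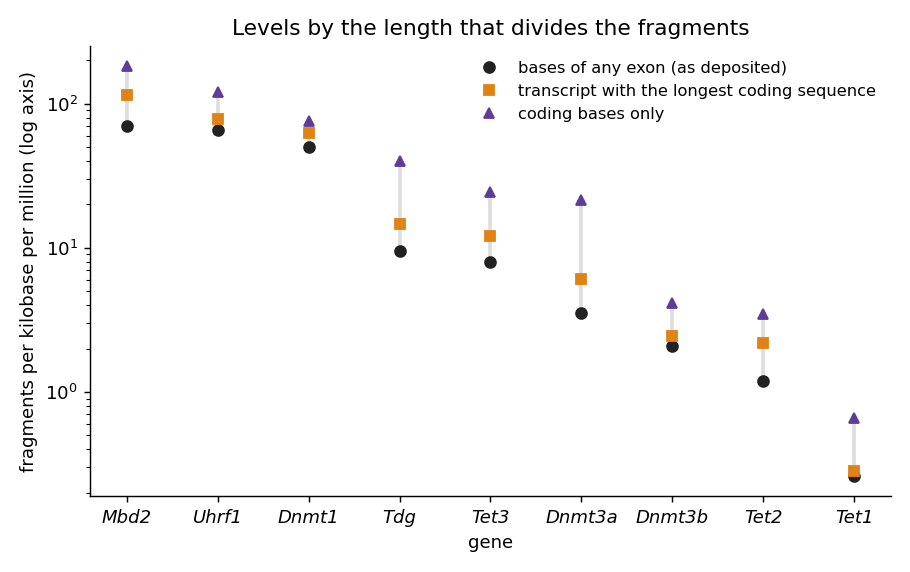
Level of each gene in FPKM, on a log axis, when fragments are divided by the bases of any exon (circles, as deposited), by the longest protein-coding transcript (squares) or by coding bases (triangles). The legend names the squares by the longest coding sequence, but the length used is that of the longest protein-coding transcript. The order of the 9 genes is the same for all 3 symbols, while *Dnmt3a* rises from 3.52 to 21.5 and comes near *Tet3* at 24.5.

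The partners of maintenance methylation were all detected, 7 of 7, with a median of 46.0 FPKM. *Pcna*, the clamp on which DNMT1 rides at the replication fork, had 189 FPKM. *Trim28*, which keeps silencing complexes at methylated repeats, had 63.9 FPKM, and *Usp7*, the deubiquitinase that stabilizes UHRF1 and DNMT1, had 56.1 FPKM. The lowest were *Ehmt2*, a histone H3 lysine methyltransferase, at 23.9 FPKM, and *Hells*, a remodeler needed for methylation of repeats, at 6.12 FPKM.

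*Dnmt1* and *Uhrf1* are known to be made mainly in cycling cells, so their levels were set beside 14 cell cycle genes, all of them detected, with a median of 64.9 FPKM. *Rrm2*, a subunit of ribonucleotide reductase, had 141 FPKM, *Mki67* 110 FPKM and *Ccna2* 86.1 FPKM, while *Ccne1* had 20.9 FPKM and *Tyms* 13.1 FPKM. *Mbd2* was above 8 of the 14, *Uhrf1* above 7 and *Dnmt1* above 5. *Dnmt3a*, *Dnmt3b*, *Tdg* and the 3 TET genes were below all 14. These are levels in the same library, and a relation across samples cannot be read from them.

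The 250 bases before the RefSeq transcription starts (GRCm38.p6) were searched for the letters TTTCGCGC and TTTGGCGC on both strands, forms of the element bound by E2F factors, which switch on genes for DNA replication. The search was chosen with the levels known. Windows were found for 8 of the 9 genes, all but *Mbd2*, 13 windows in all since some genes have several starts. *Dnmt1* and *Uhrf1* were the 2 genes with a match, each with TTTCGCGC in the window of 1 start, while either form was in 0.654% of all 32851 windows and TTTCGCGC alone in 0.256%. Both forms hold CpG, and these shares were not matched for CpG content or for the number of starts per gene. Of the 14 cell cycle genes, 12 had a window and 3 of them, *Mcm5*, *Mcm6* and *Cdk1*, a match to either form. A match is only a match of letters. The following stretches of 30 bases, 5′ to 3′ on the strand of the gene, show it in capitals for *Dnmt1*, where it is read on the other strand, and for *Uhrf1*, with *Mcm5* and *Cdk1* for comparison:

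Dnmt1: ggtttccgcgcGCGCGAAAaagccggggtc

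Uhrf1: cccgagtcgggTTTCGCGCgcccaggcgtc

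Mcm5: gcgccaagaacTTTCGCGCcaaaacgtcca

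Cdk1: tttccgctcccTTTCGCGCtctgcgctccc

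The *Dnmt1* stretch lies at chr9:20952824-20952853, in sequence that the annotation counts as an exon of the gene, and its match begins 219 bases before the start. That of *Uhrf1* lies at chr17:56304117-56304146, in an intron of the gene, with the match 185 bases before the start. Those of *Mcm5* (chr8:75109345-75109374) and *Cdk1* (chr10:69353025-69353054) lie upstream of the genes. In *Mcm5* the match overlaps one to TTTGGCGC on the other strand.

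CpG, the dinucleotide on which these enzymes act, was counted in the same windows. The median over all windows was 6 CpG, and 12 of the 13 windows of the 9 genes had more. *Tet2* had 51, more than 99.9% of all windows, and *Dnmt3a* had 15, 38 and 40 at its 3 starts. *Dnmt1* had 2, 7 and 26, and the last of these is the window with the E2F-type letters. *Uhrf1* had 10 and 30, and there too the larger count is in the window with the match. *Dnmt3b* had 21, *Tdg* 19, *Tet3* 17 and *Tet1* 15. Both high and low genes thus had CpG-rich starts, and methylation of these windows was not measured in these data.

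Most other genes of methyl-CpG reader families were detected, 9 of 11, with a median of 4.37 FPKM. After *Mbd3*, the highest were *Mbd6*, a subunit of a histone H2A deubiquitinase complex, at 24.6 FPKM, and *Mbd1* at 12.0 FPKM. *Mbd5* had 0.913 FPKM, and *Zfp57*, which guards imprinted regions in the early embryo, had 0.0502 FPKM from 3 fragments. The NuRD subunits, which work with MBD2 or MBD3, were all detected, 13 of 13, with a median of 32.8 FPKM. They were led by *Mta2* at 71.3 FPKM, *Rbbp7* at 48.7 FPKM and the remodeler gene *Chd4* at 48.1 FPKM, and were lowest for *Mta3* at 11.3 FPKM and *Gatad2b* at 6.43 FPKM.

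Of 9 genes for TET cofactors and regulators, 6 were detected, with a median of 5.11 FPKM. *Idh1* and *Idh2*, whose enzymes make the 2-oxoglutarate that TET proteins consume, had 35.4 and 27.5 FPKM, and *Ogt*, which binds TET proteins and adds GlcNAc, had 28.8 FPKM. *Wt1* and *Cxxc4*, whose products bind TET2, had no fragments, with upper limits of 0.0307 and 0.0142 FPKM. *Dppa3*, which protects methylation in the zygote, had 1 fragment.

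Of 17 genes for base excision and deamination, 14 were detected, with a median of 9.27 FPKM. *Gadd45a*, a relative of *Gadd45g*, was highest at 78.8 FPKM, followed by *Parp1* at 36.7 FPKM and *Apobec1* at 26.4 FPKM. *Gadd45g* itself, the gene deleted in the study's mutant mice, had 19.3 FPKM from 358 fragments (interval, 17.4 to 21.4). *Neil2*, a glycosylase of oxidized bases, was lowest at 0.0126 FPKM from 1 fragment. *Tdg* was above the base excision glycosylase genes *Ung* (3.19 FPKM), *Smug1* (1.08 FPKM) and *Mbd4* (3.92 FPKM), and below *Neil1* (11.3 FPKM) and *Neil3* (11.6 FPKM).

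The supply of methyl groups was detected for 10 of 11 genes, with a median of 7.80 FPKM. *Mat2a*, which makes S-adenosylmethionine outside the liver, had 30.8 FPKM, *Shmt2* 30.3 FPKM and *Ahcy*, which clears the product of methyl transfer, 28.2 FPKM. *Mtrr*, which keeps methionine synthase active, had 2.67 FPKM. *Mat1a*, the liver form, had no fragments (upper limit, 0.0548 FPKM). Over these 7 lists of pathway genes, 59 of 69 were detected, with a median of 11.4 FPKM. The share at 1 FPKM or more was 22.2% over all listed genes and 46.8% over protein-coding genes.

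Germline genes whose promoters are known to be methylated in somatic cells were read as a group. None of the 10 was detected, against 46.8% of protein-coding genes at 1 FPKM or more. Of the 10, 8 were listed at 0, with limits of 0.0349 to 0.150 FPKM, against 32.4% of protein-coding genes at 0. *Ddx4* had 0.378 FPKM from 18 fragments and *Dazl* 0.0166 FPKM from 1. Their promoter windows had 3 to 31 CpG with a median of 16, and 11 of 12 windows were above the median of all windows. Of 14 imprinted genes, in which methylation marks 1 parental copy, only *Igf2r* was detected, at 7.83 FPKM. *Grb10* followed with 0.969 FPKM and *Cdkn1c* with 0.621 FPKM. The share at 1 FPKM or more was 22.2% over all listed genes and 46.8% over protein-coding genes. *Kcnq1ot1* had 0.0225 FPKM and *Peg3* 0.00476 FPKM from 1 fragment, while *Igf2*, *Meg3* and *Snrpn* were listed at 0, the last of which shares exons with *Snurf* and is uncertain. RNA levels do not show the methylation of any of these genes.

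**Figure D4:**
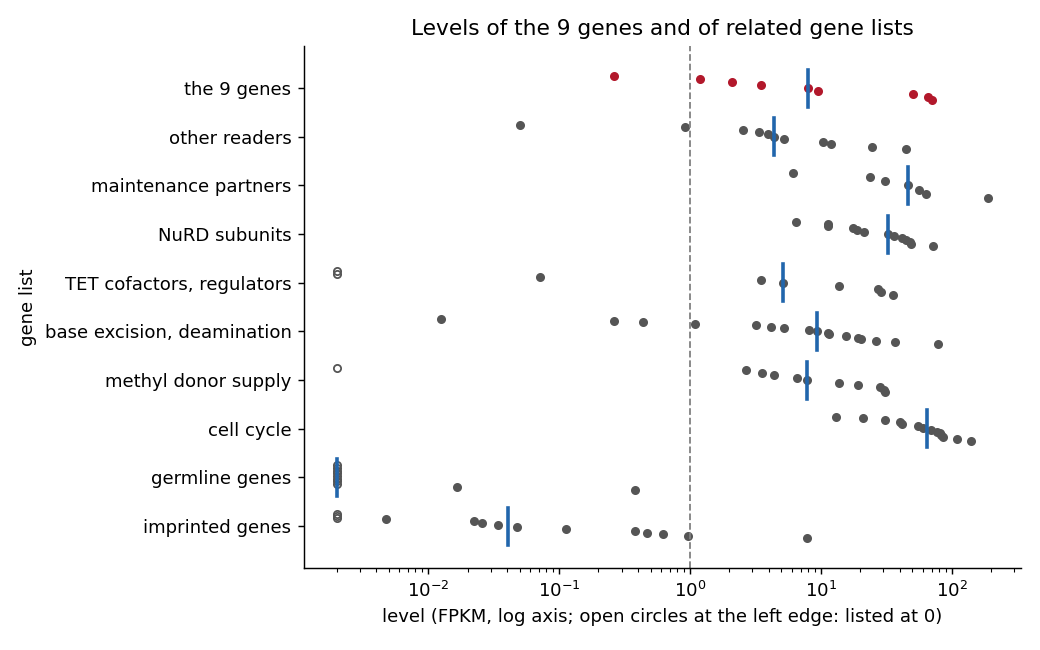
Levels of the 9 genes and of related gene lists in FPKM on a log axis; each point is 1 gene, blue bars are medians, open circles at the left edge are genes listed at 0, and the dashed line marks 1 FPKM. The maintenance partners, NuRD subunits and cell cycle genes lie wholly to the right of the line, the germline genes wholly to its left.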

How the data were processed

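The authors made Illumina libraries from total RNA of sorted c-kit+ BM cells of Ctrl mice. The deposited values are FPKM, 1 per Ensembl gene. The submitters' processing notes name HISAT2 2.0.5, featureCounts 1.5.0-p3 and mm10, and annotation, strandedness and counting options are not given in the sources used here. Names, coordinates and lengths were taken from GENCODE M21 (GRCm38, the build of mm10), which holds 54495 of the 54532 identifiers. FPKM times exon bases were whole multiples of a common step, within 0.01, for 96.4% of genes above 0 and for all 9 genes described, and were read as fragments. On simulated fragments the recovery returned 99.97% of 19013 genes given their right length. Levels carry 95% Wilson intervals and ratios of single genes exact binomial (Clopper-Pearson) intervals, both for counting error only. *Mbd1* and *Cxxc5*, whose multiples were not whole, have none.

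The members and lists were chosen with earlier results of these data known. The 9 genes are described in full. Of each other list the highest 3, the lowest 2 and genes at 0 are named, and of the marker lists *Kit* and the highest gene, except for items that are not reported here. *Gadd45g*, *Ung*, *Smug1*, *Mbd4*, *Neil1*, *Neil3*, *Uhrf2*, *Dnmt3c*, *Tdg-ps*, overlapping genes, the motif search, the genes named for a match, and the ratios of *Dnmt1* to both de novo genes and of *Uhrf1* to *Uhrf2* were added outside this rule. Alternatives were other detection minimums, totals, backgrounds, lengths and a pseudocount. Promoter windows are from RefSeq. Computations used scipy 1.17.1, pandas 2.3.3 and numpy 2.4.6 under Python 3.11.15, and plots matplotlib 3.10.9.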

Additional observations from a re-analysis of the deposited data

How the results depend on the processing

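No paired analysis was possible because only 1 library was analysed, and none could be left out in turn. Of the 9 genes, 9 were detected at 0.1 FPKM, 5 at 5 FPKM and 3 at 10 FPKM. Their median of 7.93 FPKM was 8.72 without the 10 most abundant genes in the total, 8.10 without mitochondrial genes and 18.5 as TPM, factors common to all genes. Its ratio to the median of genes above 0, 4.48, was 1.88 against protein-coding genes above 0 and 1.02 against genes at 1 FPKM or more.

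Per base of the longest protein-coding transcript, *Dnmt1* was 10.4 times *Dnmt3a*, *Dnmt3a* 2.45 times *Dnmt3b*, *Uhrf1* 1.24 times *Dnmt1* and *Tet2* 7.78 times *Tet1*. On this basis *Tet3* was 5.53 times *Tet2*, *Mbd2* 2.17 times *Mbd3*, and the methyltransferase sum 4.90 times the TET sum. In fragments without division by length these were 6.33 for *Dnmt1* to *Dnmt3a*, 5.50 for *Dnmt3a* to *Dnmt3b*, 0.760 for *Uhrf1* to *Dnmt1* (the reversed ratio), 2.55 for *Mbd2* to *Mbd3*, 0.325 for *Tdg* to the TET sum and 2.81 for the methyltransferase to the TET sum, and 4 of 8 neighbouring pairs kept their order. Per coding base, an alternative chosen after seeing the data, they were 3.55, 5.21, 1.58, 1.75, 1.41 and 3.56. These changes follow from the lengths themselves. With a pseudocount of 1 FPKM, all 8 log2 differences between roles kept their sign and were smaller.

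Of the lists, the methyltransferase relatives had 2 genes at 0.1 FPKM and 0 at 5 and at 10 FPKM, against 1 at 1 FPKM. The other genes of reader families had 5 at 5 FPKM and 4 at 10 FPKM. Base excision had 8 and methyl donor supply 5 at 10 FPKM. The germline genes had 1 at 0.1 FPKM, and the imprinted genes 6 at 0.1 FPKM and 0 at 10 FPKM. Depth limits *Tet1*, whose 64 fragments carry a counting error of 12.5%, and 1 library does not show how any level varies among mice.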
